A study of Mus musculus with 10 samples.

Results

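Intermediate filament genes were followed through the development of the mouse neocortex with ribosome profiling (Ribo-seq), which counts the mRNA fragments that translating ribosomes protect from nuclease (footprints). The set holds 7 genes out of 22373 in the deposited table. They were chosen by symbol and not by a cut on their values, but with earlier results of these data known. They are Nes (nestin, ENSMUSG00000004891), Vim (vimentin, ENSMUSG00000026728), Ina (α-internexin, ENSMUSG00000034336), Nefl, Nefm and Nefh (the light, medium and heavy neurofilament proteins; ENSMUSG00000022055, ENSMUSG00000022054 and ENSMUSG00000020396) and Gfap (glial fibrillary acidic protein, ENSMUSG00000020932). The tissue was neocortex of wild-type CD-1 mice at E12.5, E14, E15.5 and E17 (days after timed mating) and at P0, the day of birth, with no treatment in any group. Each stage had 2 libraries, each made from the pooled brains of many animals of both sexes. The replicates are thus pools rather than single animals.

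Intermediate filaments are rope-like polymers of coiled-coil proteins that give a cell mechanical strength. In the developing cortex, neural stem cells (radial glia) build them mainly from vimentin and nestin. Neurons switch to α-internexin and then to the neurofilament triplet, which fills axons and sets their calibre, with the heavy subunit known as the last to appear. Astrocytes keep vimentin and add GFAP as they mature.

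The libraries held 7544404 to 36129988 footprint counts. The 2 P0 libraries differed from each other more than those of any other stage: the log2 ratio between replicates had an SD of 0.54 over 4559 well-counted genes at P0, against 0.13 to 0.22 at the other stages, and P0 replicate 1 was the shallowest library. Fitted changes of the members from E12.5 to P0 are therefore also given without each of its libraries, as are some of those of the filament lists. All 9 neocortex markers checked, Emx1 and Pax6 among them, were detected in every library. In bulk tissue, fewer cells of a type and less RNA per cell cannot be told apart, and footprints alone do not separate the amount of an mRNA from how densely ribosomes occupy it.

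Levels are given in CPM (counts per 1000000 counts of the library, with TMM factors). They are read within a gene, across stages, and not between genes, because coding lengths were not at hand. A gene was called when its log2 fold change was at least 0.32 in size and its adjusted p under 0.05 (limma-voom with Benjamini-Hochberg adjustment over 13484 tested genes, those with at least 32 footprints in some stage). Of the 7 genes, 6 passed that filter, Gfap only through E17 and P0. Nefh, with 27 counts over the 10 libraries, did not.

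**Figure D1:**
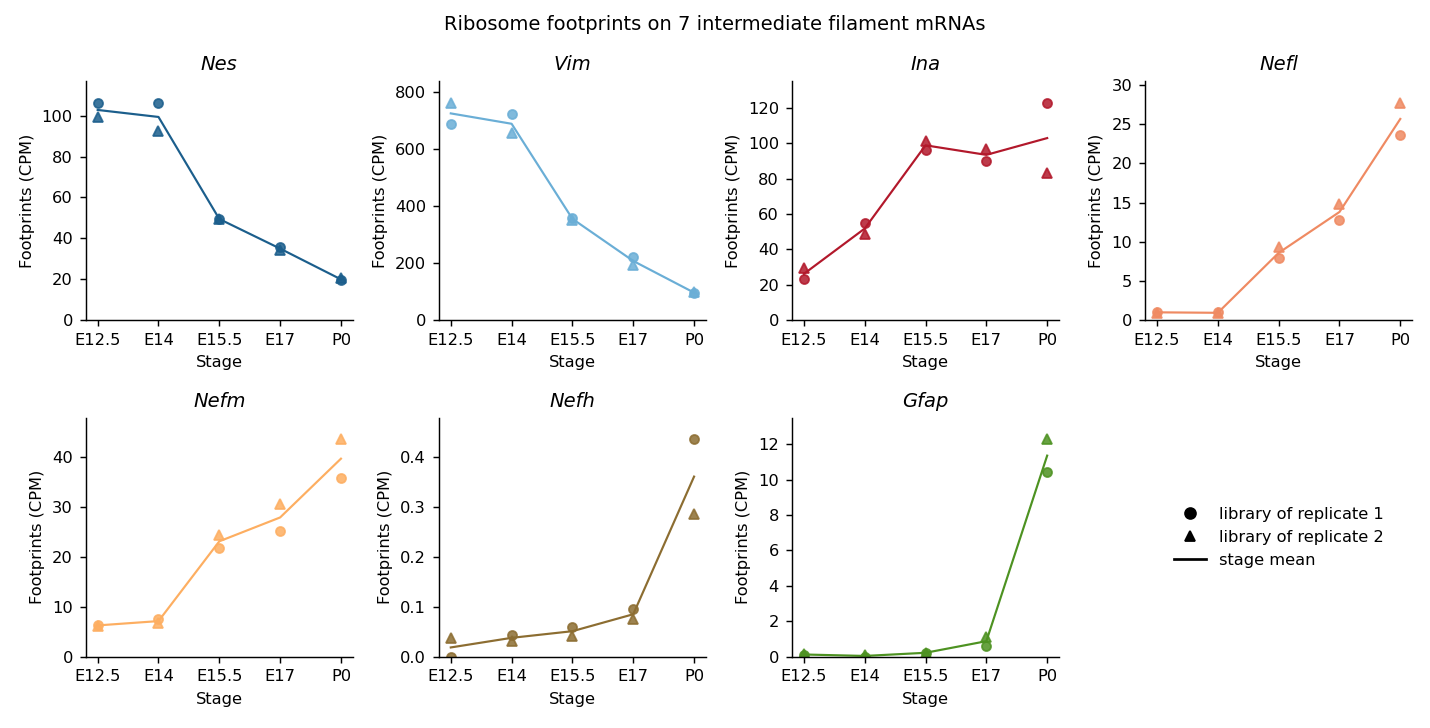
Footprints on each of the 7 genes in CPM (linear axis from 0, a separate scale per panel) against stage, with 1 point per library and a line through the stage means. Nes and Vim are highest at E12.5 and E14 and lowest at P0, Ina levels off from E15.5, Nefl and Nefm climb from E15.5, and Nefh and Gfap are near 0 until E17.

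The progenitor filaments nestin and vimentin fell at each step from E14 onwards. In the 2 libraries of each stage, Nes measured 106 and 99.3 CPM (E12.5), 106 and 92.5 (E14), 49.6 and 49.3 (E15.5), 35.7 and 34.3 (E17), and 19.5 and 20.4 (P0). Vim measured 687 and 762 CPM (E12.5), 721 and 655 (E14), 358 and 351 (E15.5), 222 and 193 (E17), and 94.5 and 97.9 (P0). For both genes the E12.5 and E14 libraries overlapped, and from there each stage lay wholly below the one before it.

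Between E14 and E15.5, Nes changed by −1.0 ± 0.10 on the log2 scale (estimate ± SE; adjusted p = 0.000235), and Vim by −0.95 ± 0.11 (adjusted p = 0.000382). The next step, to E17, gave −0.50 ± 0.10 for Nes (adjusted p = 0.0246) and −0.78 ± 0.11 for Vim (adjusted p = 0.00866). From E17 to P0 the values were −0.80 ± 0.11 for Nes (adjusted p = 0.00295) and −1.10 ± 0.11 for Vim (adjusted p = 0.0011), and without P0 replicate 1 and 2 in turn they were −0.78 and −0.84 for Nes and −1.08 and −1.13 for Vim, still called. Over the whole span Nes was 5.13-fold lower at P0 than at E12.5 (log2 fold change −2.36 ± 0.11, adjusted p = 9.8e-07) and Vim 7.51-fold lower (−2.91 ± 0.11, adjusted p = 5.25e-07). Leaving out either P0 library gave −2.33 and −2.39 for Nes and −2.89 and −2.93 for Vim.

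The other radial glia markers went both ways. Of 10, 3 were called higher and 5 lower at E15.5 than at E14, and 4 higher and 5 lower at P0 than at E12.5. Their summed level was 1442 to 1567 CPM at E12.5, 1834 to 1990 at E15.5, 2251 to 2423 at E17 and 1434 to 1974 at P0. Most of that sum was Fabp7, with stage means of 969 CPM (E12.5), 1628 (E15.5), 2054 (E17) and 1486 (P0). The sum thus follows mainly that gene and not the list as a group.

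Vimentin is also made by meningeal, vascular and choroid plexus cells. The summed level of 10 meningeal fibroblast markers was 74.1 to 112 CPM in the E12.5 and E14 libraries and 3.12 to 8.83 CPM in the later ones, and 10 of 10 were called lower at E15.5 than at E14. The sum of 10 choroid plexus markers went from between 287 and 1167 CPM at E12.5 and E14 to between 6.29 and 15.4 CPM later, with 8 of 8 tested called lower at that step. Endothelial and pericyte markers summed to between 50.1 and 88.8 CPM over all libraries, and 8 of 10 were called lower at E15.5 than at E14. Most of that sum from E15.5 on was Rgs5, at 25.4 CPM at E12.5, 44.8 at E15.5 and 63.8 at E17, so its level range does not describe the rest of the list. No meningeal marker was at 0 in any library before P0, where 3 were at 0 in replicate 1. The part of these cells in the E14 to E15.5 fall of Nes and Vim was not tested. From E15.5 to E17, when both genes fell again, none of the meningeal, endothelial or pericyte markers was called lower, and 1 of 8 choroid plexus markers was. From E17 to P0, when both genes fell once more, 6 of 10 endothelial and pericyte markers were called lower (median log2 −1.28) and none of the meningeal or choroid plexus markers was. The part of these cells in either step was not tested.

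The balance of the pair also moved. The log2 ratio of Vim to Nes counts within a library was 2.69 and 2.94 (E12.5), 2.76 and 2.82 (E14), 2.85 and 2.83 (E15.5), 2.64 and 2.49 (E17) and 2.28 and 2.26 (P0). It was level to E15.5 and lower at E17 and P0, so that Vim lost 0.54 log2 units against Nes between E12.5 and P0 (exact permutation test of the stage effect over 945 groupings of the 10 libraries into pairs, one-sided by its F statistic, p = 0.018, adjusted over 4 ratios 0.024). This call was lost without E15.5 replicate 1 (adjusted p = 0.0508), E15.5 replicate 2 (0.0536) or E17 replicate 2 (0.0832) in the same exact test.

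α-internexin, the filament protein of young neurons, rose up to E15.5, with no later step called. Ina measured 23.0 and 29.2 CPM (E12.5), 54.6 and 48.9 (E14), 96.2 and 102 (E15.5), 90.2 and 96.7 (E17), and 123 and 83.0 (P0). Each stage to E15.5 lay above the one before, while from E15.5 on the ranges overlapped, and the 2 P0 libraries bracketed every E15.5 and E17 value.

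Ina was the member with the greatest relative shift between E12.5 and E14 among those with over 10 counts in each of these libraries, at log2 0.99 ± 0.19, but did not pass the threshold there (adjusted p = 0.0643). DESeq2 gave an adjusted p of 0.000513 for that step, edgeR's quasi-likelihood test 0.0749, and over all alternatives it ranged from 0.000513 to 0.37, with the call also made without P0 replicate 1 (0.00682) or P0 replicate 2 (0.00761). The step to E15.5 was called (0.94 ± 0.19, adjusted p = 0.00538). The later steps gave −0.08 ± 0.18 to E17 (adjusted p = 0.844) and 0.09 ± 0.18 to P0 (adjusted p = 0.747). At P0 Ina was 3.81-fold above E12.5 (log2 1.93 ± 0.19, adjusted p = 5.3e-05), or log2 1.66 without P0 replicate 1 and 2.23 without replicate 2.

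The light and medium neurofilament genes rose with their main step between E14 and E15.5. Nefl, the core subunit that neurofilaments need to assemble, stood at 1.05 and 0.935 CPM (E12.5) and at 0.972 and 0.887 (E14), from 19 to 28 counts in each library. It then reached 7.86 and 9.29 CPM (E15.5), 12.8 and 14.8 (E17) and 23.6 and 27.7 (P0). Nefm, which lies beside Nefl on the same chromosome and encodes a subunit with a long projecting tail, stood at 6.38 and 6.21 CPM (E12.5), 7.51 and 6.81 (E14), 21.8 and 24.5 (E15.5), 25.3 and 30.6 (E17) and 35.9 and 43.6 (P0). From E14 on, no pair of adjacent stages overlapped for either gene.

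Nefl rose 9.07-fold from E14 to E15.5 (log2 3.18 ± 0.23, adjusted p = 7.63e-05), then by log2 0.69 ± 0.14 to E17 (adjusted p = 0.0228) and 0.92 ± 0.13 to P0 (adjusted p = 0.00356; 1.01 and 0.78 without P0 replicate 1 and 2, still called). Nefm rose 3.23-fold at the E15.5 step (log2 1.69 ± 0.15, adjusted p = 0.000155). Its step to E17 was not called, at 0.27 ± 0.14 (adjusted p = 0.271), and the step to P0 was, at 0.53 ± 0.14 (adjusted p = 0.0307), a call that was lost when any library but P0 replicate 1 was left out (log2 0.37 to 0.66, adjusted p 0.0501 to 0.216), without a filter (0.0553) and with sample quality weights (0.216). Over the whole span Nefl rose 26.0-fold (log2 4.70 ± 0.23, adjusted p = 1.43e-06) and Nefm 6.35-fold (2.67 ± 0.16, adjusted p = 3.02e-06). Without either P0 library the log2 values were 4.80 and 4.57 for Nefl and 2.79 and 2.51 for Nefm.

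Of 10 neuron markers, 2 were called higher at E14 than at E12.5 (median log2 0.51), 9 at E15.5 than at E14, 3 at E17 than at E15.5 and 5 at P0 than at E17, with none lower. Over the whole span 10 were called higher, and their summed level went from 2347 to 2396 CPM at E12.5 to 10537 to 12077 CPM at P0. Markers of the ganglionic eminence, the source of cortical interneurons, went from a sum of 15.1 to 15.9 CPM at E12.5 to 166 to 175 CPM at P0, with 6 of 9 called higher at E15.5 than at E14 and 8 of 9 at P0 than at E12.5. The part of neuron number or of either lineage in the rise of Ina, Nefl and Nefm was not tested.

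**Figure D2:**
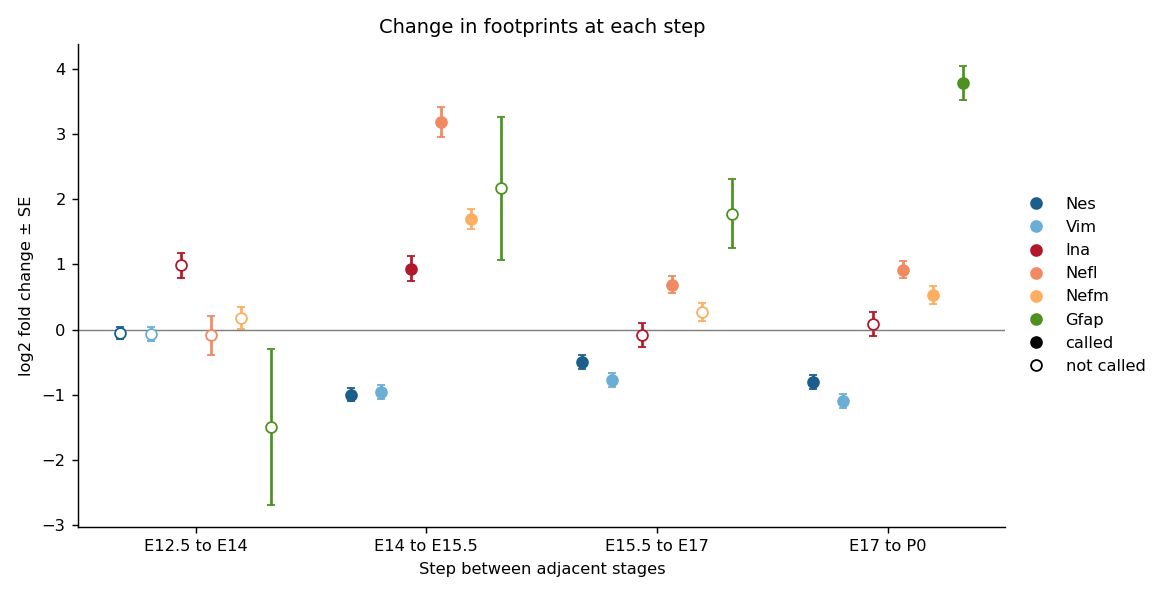
log2 fold change with its standard error for each step between adjacent stages, for the 6 genes that passed the filter, with filled points for called changes and open points for the rest. No point is filled at the first step, Nes and Vim lie below 0 and filled at the other 3, and the highest values are Nefl at E15.5 (3.18) and Gfap at P0 (3.78).

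The balance among the neuronal filaments was also tested inside each library, where depth and scaling cancel. The log2 ratio of Nefl to Ina counts was −4.46 and −4.97 (E12.5), −5.81 and −5.78 (E14), −3.61 and −3.45 (E15.5), −2.82 and −2.71 (E17) and −2.38 and −1.58 (P0). It was lowest at E14 and rose at every later step, by 2.73 in all from E12.5 to P0 (exact permutation p = 0.00106, adjusted 0.00212). The log2 ratio of Nefm to Nefl counts was 2.61 and 2.73 (E12.5), 2.95 and 2.94 (E14), 1.47 and 1.40 (E15.5), 0.98 and 1.05 (E17) and 0.60 and 0.65 (P0). The light subunit therefore gained on the medium one by 2.04 log2 units from E12.5 to P0, most of it (1.51 on the stage means) between E14 and E15.5 (exact permutation p = 0.00106, adjusted 0.00212). For both ratios that p is the smallest that the 945 groupings can give. Without P0 replicate 1 and 2 in turn, the changes were 3.13 and 2.33 for Nefl against Ina and −2.02 and −2.07 for Nefm against Nefl, with the same exact permutation p.

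**Figure D3:**
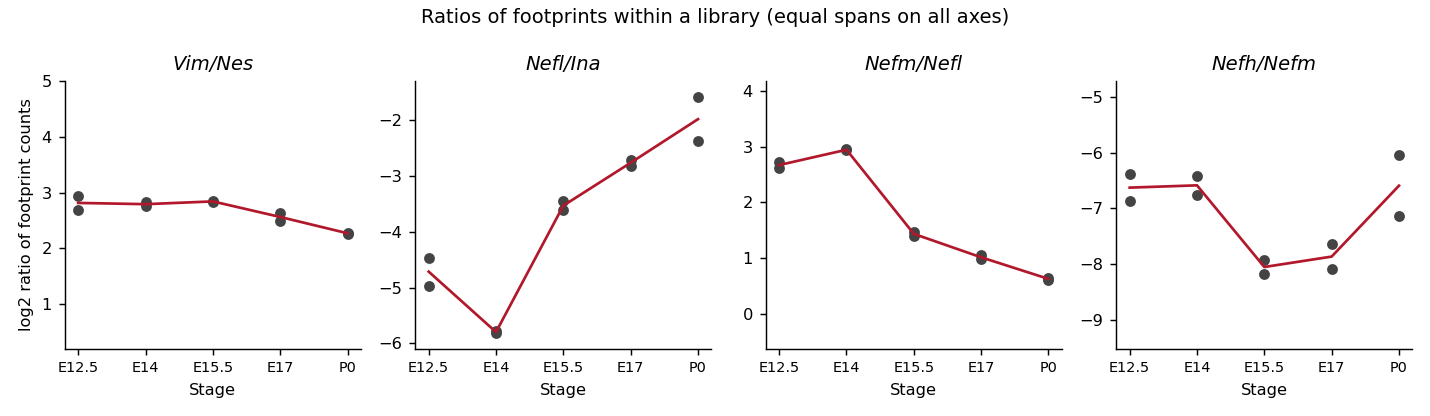
log2 ratio of footprint counts within each library for 4 gene pairs, with 1 point per library, a line through the stage means and the same span on every axis (1 count was added to both genes for Nefh/Nefm). Nefl/Ina climbs from −5.80 at E14 to −1.98 at P0 on the stage means, Nefm/Nefl drops from 2.95 to 0.63, Vim/Nes declines only after E15.5, and Nefh/Nefm rests on 0 to 12 Nefh counts per library.

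The heavy subunit Nefh had few footprints before birth. Its counts were 0 and 1 (E12.5), 1 and 1 (E14), 2 and 1 (E15.5), 3 and 2 (E17) and 4 and 12 (P0), and the P0 libraries stood at 0.435 and 0.286 CPM. The count of 0 allows up to 3 counts, or 0.165 CPM, in that library. Summed over the 2 libraries of a stage and scaled by depth, P0 was 14.1 times E12.5 with an exact 95% interval of 2.19 to 590 (16 counts against 1), and 3.64 times E17 (1.27 to 12.7; 16 against 5). These intervals cover counting error only. Both P0 libraries lay above every earlier one. Relative to Nefm, with 1 count added to each gene, the log2 ratio at P0 differed from that at E12.5 by 0.03, and the stage effect missed the threshold (exact permutation p = 0.054, adjusted 0.054). The stage means were −6.63, −6.59, −8.05, −7.86 and −6.59 in order of age, from 0 to 12 Nefh counts per library. The added count is at least as large as each Nefh count at E12.5 and E14, so these ratios depend on it. Summed over the libraries of a stage without it, Nefh and Nefm had 1 and 282 counts at E12.5 and 16 and 2157 at P0. The stage effect passed the threshold without P0 replicate 1 (exact permutation adjusted p = 0.0395) or P0 replicate 2 (0.0325), with P0 then 0.51 below E12.5 in the one case and 0.58 above it in the other.

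Gfap rose mainly between E17 and P0. Its counts were 2 and 4 (E12.5), 0 and 3 (E14), 8 and 5 (E15.5), 20 and 30 (E17) and 96 and 514 (P0), and the 0 allows up to 0.133 CPM in that library. In CPM, E17 stood at 0.635 and 1.13 and P0 at 10.4 and 12.3, so that both P0 libraries were far above both E17 libraries in spite of their unequal depth. From E17 to P0, Gfap rose 13.7-fold (log2 3.78 ± 0.26, adjusted p = 0.000405), and by log2 3.87 and 3.64 without P0 replicate 1 and 2 in turn. The 3 earlier steps were not called, with adjusted p of 0.61, 0.16 and 0.0766 in order of stage, and the first, with 0 to 4 counts per library, had an SE of 1.19. The third was called by edgeR (adjusted p = 0.0489), by DESeq2 (0.0219), with sample quality weights (0.0115), in a fit of its 2 stages (0.0349) and without P0 replicate 1 (0.0434) or 2 (0.0407).

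Against E12.5, Gfap was called at E17 (log2 2.45 ± 0.71, adjusted p = 0.0185), which was lost without either E12.5 library (adjusted p 0.0704 and 0.0981), and at P0 (6.23 ± 0.68, adjusted p = 8.74e-05). Without P0 replicate 1 and 2 in turn, the change from E12.5 to P0 was 6.31 and 6.08. With only 6 counts at E12.5, the ratio of depth-scaled counts, 89.4, had an exact 95% interval of 40.8 to 244. Of 10 astrocyte markers, 4 were called higher at P0 than at E17 and none lower, with Aldh1l1, a folate enzyme of astrocytes, at 18.1 CPM at E17 and 30.5 CPM at P0, and Aqp4, the water channel of astrocyte endfeet, at 0.280 and 2.11 CPM. The list's summed level was 580 to 632 CPM at E12.5, 294 to 306 at E15.5, 339 to 355 at E17 and 525 to 564 at P0. Its largest parts at E12.5 were Aldoc, Apoe and Ndrg2, at 213, 149 and 114 CPM. Of the 10, 4 were called lower at P0 than at E12.5 and 5 higher. Astrocyte markers named here were chosen after their values were seen, and their part in the rise of Gfap was not tested.

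Counted by comparison, the members changed mostly after E14, as did the tested genes as a whole. From E12.5 to E14, 0 of 6 tested members were called by limma-voom, against 0.638% of all tested genes. All stages shared 1 estimate of the spread, P0 included, so this share depends on libraries outside the step. With sample quality weights, 1 member (Ina) was called and 655 of all 13484 genes, against 86 without them. Without weights, 1 of 6 (Ina) had an unadjusted limma-voom p under 0.05, beside 2137 of all 13484 genes. The quasi-likelihood test of edgeR called 0 members and 85 of all genes, and DESeq2 called 1 member (Ina) and 399 of all genes. From E14 to E15.5, 5 of 6 were called (3 higher and 2 lower) against 36.1% of all genes (16.5% higher and 19.6% lower). From E15.5 to E17 it was 3 of 6 (1 higher, 2 lower) against 9.04% (5.61% higher and 3.43% lower). None was called without either E15.5 library or either E17 library, fits that called 0 to 18 of all 13484 genes. In them the log2 changes were −0.47 to −0.53 for Nes and −0.68 to −0.88 for Vim. From E17 to P0 it was 5 of 6 (3 higher, 2 lower) against 20.5% (9.46% and 11.1%). A fit of only these 2 stages called 0 of all 13484 genes and so 0 members. In it 5 members had an unadjusted limma-voom p under 0.05, beside 2957 of all genes.

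Against E12.5, the members called were 5 of 6 at E15.5 (3 higher and 2 lower; background 46.2%, 22.2% higher and 24% lower), 6 of 6 at E17 (4 and 2; background 54.7%, 26.9% and 27.8%) and 6 of 6 at P0 (4 and 2; background 62.1%, 30.1% and 32%). These 3 comparisons share their E12.5 libraries. Gfap reached the 32 footprints of the filter only at E17 (50 counts) and P0 (610 counts). Its calls at those stages, and across all stages, are thus of a gene admitted for being high there. The test over all stages called 6 of 6, where 63.8% of all genes were called. The median log2 fold change of the 6 from E12.5 to P0 was 2.30, beside −0.01 over all tested genes.

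The mix of filament footprints turned over. Vim took 83.4% and 84.9% of the footprints on the 7 genes at E12.5, 67.1% and 65.5% at E15.5 and 30.8% and 34.3% at P0. Ina took 2.80% and 3.26% at E12.5 and 40% and 29.1% at P0. Footprints on Nes and Vim outnumbered those on the 4 neuronal genes 26.0 and 23.6 to 1 (E12.5), 13.1 and 13.2 to 1 (E14), 3.24 and 2.96 to 1 (E15.5) and 2.0 and 1.60 to 1 (E17). At P0 the order was turned, at 0.623 and 0.765 to 1. These shares depend on the lengths of the coding sequences, so that their change over stages can be read and their order at a stage cannot. Together, the 7 genes took 0.0701% to 0.0757% of a library at E12.5 and E14 and 0.0335% to 0.0374% at P0.

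**Figure D4:**
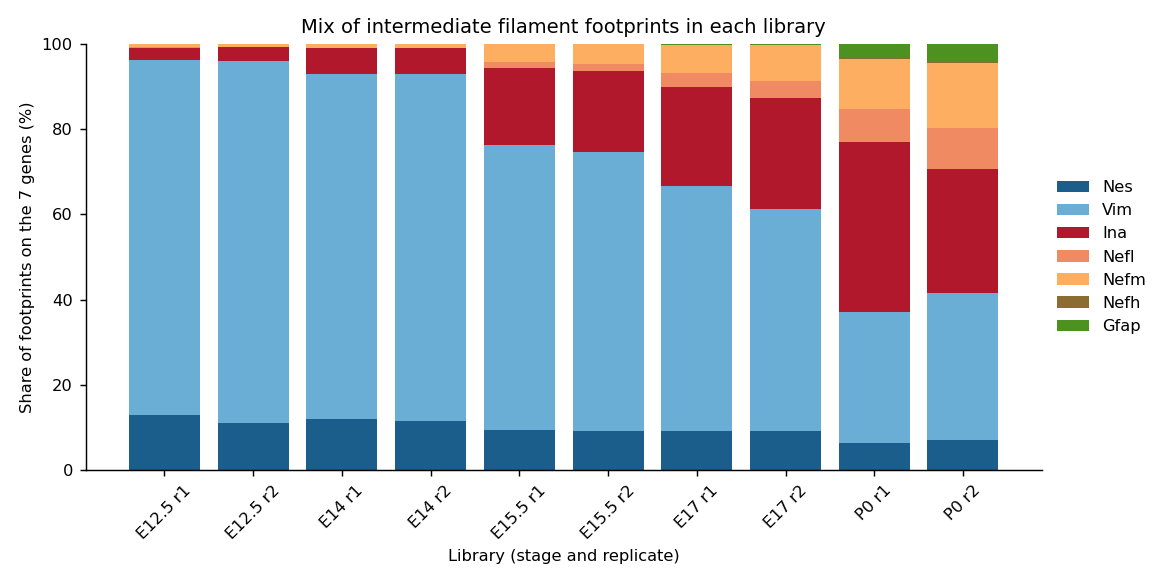
Share of the footprints on the 7 genes that fell on each of them, in percent, in each of the 10 libraries (r1 and r2 are replicates 1 and 2). Vim shrinks from 83.4% and 84.9% at E12.5 to 30.8% and 34.3% at P0, while Ina, Nefm, Nefl and, at P0, Gfap take larger shares and Nefh stays too thin to see.

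For each member, the genes whose log2 CPM over the 10 libraries was most like it were picked by Pearson's r among the 9214 to 9215 genes that averaged 100 counts or more. These values describe 10 libraries in 5 pairs that share stage, and hold no test. Nes ran with Flna (filamin A, an actin crosslinker; r = 0.998), H2afj (0.997) and Hist1h1a (0.996), both histone genes. Vim ran with Dhrs4 (0.998), Actl6a (0.997), a subunit of the BAF complex of neural progenitors, and Peg10 (0.997). Ina was likest to Mturn (0.993), Ppp1r16b (0.991) and Nos1 (0.991), the neuronal nitric oxide synthase.

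Nefl was likest to Gucy1a1 (0.999), a subunit of the nitric oxide receptor guanylate cyclase, Nrip1 (0.997) and the septin Sept6 (0.996). Nefm was likest to Satb1 (0.998), a chromatin organiser, Gucy1a1 (0.997) and Ica1 (0.997), so that Gucy1a1 stood in both neurofilament lists. Gfap had looser neighbours, with Asns (asparagine synthetase) at 0.989, Ppm1h at 0.984 and Oxct1, an enzyme of ketone body use, at 0.983. Before E17 Gfap had only 0 to 8 counts per library, so these r rest on few counts there. Rarer genes such as Aqp4, with 149 counts in all, were outside the search.

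Genes that build, bind, phosphorylate or clear intermediate filaments were read from P0 against E12.5, for which 30.1% of all tested genes were called higher and 32% lower. Every call on a gene named from these lists was also made without P0 replicate 1 and without P0 replicate 2, other than those on Krt18, Plec and Hspb1. Of 11 other cytoplasmic filament genes, 7 were tested, with a median log2 fold change of 1.58. That median is the value of Krt19 (1.58 ± 1.23, not called), which was 2.51 and −2.99 without P0 replicate 1 and 2 in turn. Without P0 replicate 2 the median was the value of Prph, −0.69, so its sign rests on that library. With all libraries, 2 of the 7 were called higher and 1 lower. Without P0 replicate 1 it was 4 higher and 1 lower, and without P0 replicate 2 it was 2 and 0. Bfsp1, first known from the eye lens, rose most (0.147 to 1.03 CPM, log2 2.86 ± 0.59, adjusted p = 0.00301). It had 100 counts over the 10 libraries and reached the 32 footprints of the filter only at P0. Its place among the tested genes thus rests on the stage where it was called higher. Krt18, an epithelial keratin, fell (0.757 to 0.198 CPM, −1.39 ± 0.50, adjusted p = 0.0382), a call lost without P0 replicate 2 (adjusted p = 0.154). The other call was Synm, synemin, which co-assembles with vimentin (1.00 to 4.07 CPM, 2.09 ± 0.27, adjusted p = 0.000213), named after its value was seen. Peripherin, Prph, the filament of peripheral neurons, stood at 1.67 and 1.60 CPM and was not called, and it too was named after its values were seen.

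The 3 lamin genes, whose products line the nuclear envelope, split. Lmna rose (4.37 to 12.6 CPM, log2 1.53 ± 0.17, adjusted p = 8.77e-05) and Lmnb1 fell (155 to 52.8 CPM, −1.56 ± 0.09, adjusted p = 2.63e-06). The third, Lmnb2, named after its value was seen, fell too, from 30.2 to 19.2 CPM (−0.71 ± 0.17, adjusted p = 0.00605). Of 7 genes for linkers that tie filaments to other structures, 4 were tested and 3 called higher (median 0.59), with none lower. Among those 3, Plec, named after its value was seen, rose by log2 0.44 ± 0.15 (adjusted p = 0.0324). Without P0 replicate 1 and 2 in turn its change was 0.42 and 0.49, and the call was lost without replicate 2. Plec had been called lower than at E12.5 at E15.5 (−1.46 ± 0.17) and E17 (−1.26 ± 0.17). Macf1, a spectraplakin that joins actin to microtubules, rose most, from 14.2 to 43.0 CPM (1.61 ± 0.12, adjusted p = 1.01e-05).

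Among 12 kinases and activators that act on filament proteins, 7 were called higher and 4 lower (median 0.46). Cdk5r2, which encodes the p39 activator of the neuronal kinase Cdk5, rose most (1.05 to 25.2 CPM, log2 4.4 ± 0.47, adjusted p = 7.3e-05). Aurkb, a mitotic kinase that phosphorylates vimentin, fell most (67.3 to 4.04 CPM, −4.08 ± 0.23, adjusted p = 2.47e-06). Named after their values were seen, the 2 other mitotic kinases of the list moved with it, Plk1 by −3.97 ± 0.15 (adjusted p = 5.38e-07) and Cdk1 by −3.78 ± 0.10 (adjusted p = 3.74e-07). Also named after its value was seen, Cdk5 itself, a kinase of neurofilament tails, moved by 1.36 ± 0.14 (adjusted p = 6.12e-05) and Cdk5r1, its p35 activator, named likewise, by 2.30 ± 0.14 (adjusted p = 3.82e-06).

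Of 5 genes for chaperones and turnover, 3 were called higher and 1 lower (median 0.73). Cryab, the small heat shock protein that binds GFAP and desmin filaments, rose most (2.11 to 8.79 CPM, log2 2.03 ± 0.46, adjusted p = 0.00498). Its relative Hspb1 fell (2.21 to 1.40 CPM, −1.08 ± 0.36, adjusted p = 0.0266), a call lost without P0 replicate 2 (log2 −0.06, adjusted p = 0.922). Trim2, a ubiquitin ligase for the light neurofilament protein, was at 98.7 CPM at E12.5 and at 253 CPM at P0, called higher and named after its value was seen.

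**Figure D5:**
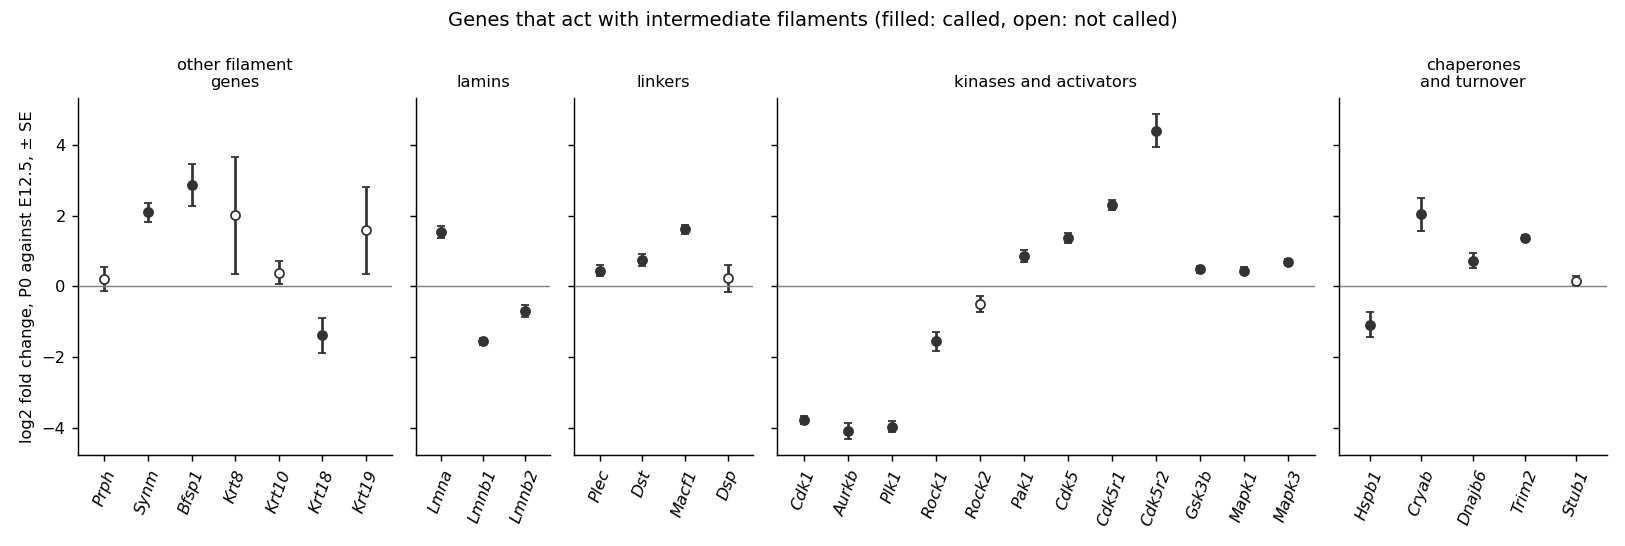
log2 fold change with its standard error at P0 against E12.5 for the tested genes of 5 lists, with filled points for called changes and open points for the rest. The mitotic kinases Cdk1, Aurkb and Plk1 lie near −4, Cdk5r2 is highest at 4.4, and the lamins lie on both sides of 0.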

How the data were processed

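Ribosome footprints were measured in 10 libraries, 2 per stage. The authors deposited whole-number footprint counts per gene. Per their methods, adapters and random bases were trimmed, duplicate read sequences removed, tRNA, rRNA and snoRNA reads discarded with Bowtie 2, and the rest aligned with STAR (2.7.0 in the submitters' processing notes) to GENCODE coding transcripts and the genome, with multiply matching reads kept. Isoform abundances were then derived with DeepShape-prime and turned into gene-level counts with tximport. Whether the deposited counts come from these is not given in the sources used here, so how reads were shared among related genes is uncertain. The table names no genome build, and no coordinates are printed. Footprints came from RNase T1 and RNase A digests.

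Of 22373 identifiers, 22274 matched a symbol. Genes with at least 32 footprints in some stage (13484) were fitted over all 10 libraries with TMM and limma-voom (limma 3.58.1, edgeR 4.0.16, R 4.3.3), 1 coefficient per stage, and 7 contrasts. The code was tested on simulated data. Ratios of member pairs used raw counts in place of counts per coding length, since lengths were not at hand; this shifts a ratio by a constant and leaves its test unchanged. Where a library held 0, 1 count was added to both genes. Alternatives were edgeR's quasi-likelihood test, DESeq2 (1.42.0), other scalings and filters, sample weights, fits of 2 stages, a replicate block and leaving out each library. For list genes, leaving out each P0 library was added after seeing the data.

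Named genes were the 7 members, the strongest called rise and fall in each list between E12.5 and P0, and the 3 likest genes per member. Other genes were named after their values were seen. Of the lists, 2 genes are not reported here. Members and lists were chosen with earlier results of these data known. The p-values measure the spread between pooled libraries.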

Additional observations from a re-analysis of the deposited data

How the results depend on the processing

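Over the 42 combinations of a tested member and a comparison, 791 alternative values were computed: 747 kept the direction and the side of the threshold, 30 kept only the direction and lost the call, 10 gained one and 4 turned direction. From E12.5 to E14, 1 member (Ina) was called with DESeq2 and with sample quality weights, and 0 to 1 when single libraries were left out. Leaving out single libraries gave 0 to 4 members from E15.5 to E17, 4 to 5 from E17 to P0 and 5 to 6 from E12.5 to E17, and a fit of only E17 and P0 called 0 members and 0 genes in all. The values that turned were all uncalled: Nes from E12.5 to E14 (0.0061 with total counts only, and −0.15 to 0.049 when single libraries were left out, above 0 without E14 replicate 2), Vim at the same step (−0.15 to 0.00059, above 0 without E12.5 replicate 2) and Ina from E17 to P0 (−0.17 to 0.40, below 0 without P0 replicate 1). Of the list genes from E12.5 to P0, with P0 replicate 1 and 2 left out in turn (chosen after seeing the data), uncalled values turned for Prph (0.42 and −0.69), Krt8 (3.16 and −3.83), Krt19 (2.51 and −2.99), Dsp (0.39 and −0.60) and Stub1 (−0.043 and 0.40), of which Krt8, Krt19 and Stub1 were called where above 0. The Nefh/Nefm change turned to −0.21 without E12.5 replicate 1 and −0.51 without P0 replicate 1, within a range of −0.51 to 0.58 and past the threshold without either P0 library in opposite directions (exact permutation adjusted p = 0.0395 and 0.0325), and the Vim/Nes change ranged from −0.67 to −0.42. Scaling by total counts moved the median of all genes by 0.29 (E14 to E15.5) and 0.53 (E12.5 to P0), and under it Nes and Vim were still called lower and Ina, Nefl, Nefm and Gfap higher at P0 than at E12.5. Deviations of same-numbered libraries correlated between −0.63 and 0.43 over the 10 pairs of stages, so the numbers were not taken as pairs. With the replicate block the members called were 0, 5, 3, 5, 5, 6 and 6, and 6 across stages. For the ratios, replicate means were subtracted and all 945 groupings kept, so this test is not exact for a blocked design. In it only Nefh/Nefm changed its call (0.035, permutation adjusted p = 0.0423). The cause of these changes was not tested. Depth limits Nefh, and Gfap before E17, to a few counts per library.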
